A study of Homo sapiens with 6 samples.

Results

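The miR-23, miR-27 and miR-24 microRNAs (miRNAs) come from a pair of related gene clusters, and 5 assays for them were read from quantitative PCR cards of HEK-293FT cells, a human embryonic kidney line that carries the SV40 large T antigen. The assays were hsa-miR-23a, hsa-miR-23b, hsa-miR-24, hsa-miR-27a and hsa-miR-27b, chosen by name from the 377 human miRNA assays on each card. The cells were either controls (3 samples), which the labels describe no further, or had received small interfering RNA (siRNA) against TruB1 by lipid transfection (3 samples). Each title also carries a series number from 1 to 3, used here as the replicate number. Both groups were of the same line, and nothing in the labels says whether the samples were separate cultures. The p-values therefore measure only spread between these samples, which limma pools in part over the assays of the card. TruB1 is a pseudouridine synthase of transfer RNA, and its part in the maturation of the let-7 miRNAs is the known question of the study. No value here shows how far TruB1 was lowered in each sample.

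Members of a miRNA cluster are transcribed as one primary transcript. The nuclear enzyme Drosha cuts each hairpin out of it, Dicer removes the loop, and one arm is loaded into Argonaute. Each mature miRNA then recognises target messages mainly through its seed, the bases near its 5′ end. Cluster partners therefore share transcription but pass through processing and turnover one by one. The miR-23/27/24 clusters are known from endothelial cells, T cells and adipocytes, and raised expression of the miR-23a cluster has been reported to trigger death of human embryonic kidney cells.

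The targets of the 5 assays, as deposited by the authors, are shown to make clear which assays have near-identical targets. Capitals mark the seed, bases 2 to 8 counted from the 5′ end.
hsa-miR-23a: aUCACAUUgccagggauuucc
hsa-miR-23b: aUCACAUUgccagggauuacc
hsa-miR-27a: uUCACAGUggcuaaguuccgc
hsa-miR-27b: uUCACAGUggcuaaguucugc
hsa-miR-24: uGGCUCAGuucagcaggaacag
The a and b forms differ by a single base near the 3′ end, U19A from miR-23a to miR-23b and C19U from miR-27a to miR-27b, and share their seed. The seeds of miR-23 and miR-27 differ from each other at 1 base (U7G), while that of miR-24 is unrelated to them. Apart from its own paralog, no other assay of the card had the seed of miR-23 or miR-27, and none had that of miR-24. Bases 3 to 8 alone were also found within the first 10 bases of miR-323-3p (for miR-23), miR-128a (for miR-27) and miR-484 (for miR-24). The RefSeq mature sequence was identical to the assay target except for miR-23b, which is listed at 23 bases against 21 in the assay.

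In RefSeq annotation of GRCh38.p14, the hairpins MIR23A, MIR27A and MIR24-2 lie within 373 bases on the minus strand (chr19:13836287-13836659), inside the bounds of the long noncoding gene MIR23AHG. MIR23B, MIR27B and MIR24-1 lie within 881 bases on the plus strand (chr9:95085208-95086088), inside the bounds of the protein-coding gene AOPEP. The annotation table used here gives gene bounds only, so whether each hairpin is exonic or intronic was not determined. The hairpins of miR-24 and miR-27 are shown because the assays read only their mature arm, in capitals.
MIR24-1 (chr9:95086021-95086088, plus strand): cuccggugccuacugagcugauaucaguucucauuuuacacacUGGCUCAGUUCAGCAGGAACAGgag
MIR24-2 (chr19:13836287-13836359, minus strand): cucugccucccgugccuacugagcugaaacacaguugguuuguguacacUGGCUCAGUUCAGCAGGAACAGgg
MIR27A (chr19:13836440-13836517, minus strand): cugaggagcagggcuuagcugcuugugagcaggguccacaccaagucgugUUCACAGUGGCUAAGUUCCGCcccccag
MIR27B (chr9:95085445-95085541, plus strand): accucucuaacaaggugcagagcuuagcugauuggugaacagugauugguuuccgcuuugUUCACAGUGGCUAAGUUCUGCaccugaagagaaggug
MIR24-1 and MIR24-2 differ in their loop and 5′ arm but give the same mature miR-24. The miR-24 assay thus reads the output of both clusters together, whereas miR-23 and miR-27 have 1 assay for each cluster.

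Each raw value is a threshold cycle (Ct), read when the fluorescence of a well first passes a fixed level. Abundant templates cross early and so have a low Ct, and each cycle of delay corresponds to 2-fold less template if amplification is fully efficient. Between 188 and 226 miRNA assays per card had a Ct under 35. The reference, U6 small nuclear RNA, had a mean Ct from 12.2 to 15.4, resting on 2 to 4 determined wells per card. Within a card these wells spanned 0.36 to 2.77 cycles, and the widest span was in control sample 1, which had 4 wells. The mean Ct of the 157 miRNA assays under 35 in all 6 samples ran from 25.9 to 27.7 and gives a second reference. The 4 assays listed as typical of proliferating human lines (miR-17, miR-20a, miR-92a and miR-106a) were all under Ct 35 in all 6 samples. All 157 common assays met that limit, so it does not identify the line. Of the markers of other cell types, liver miR-122 had no crossing in any sample, while the blood and mesenchymal lists gave late or intermittent signals. All 4 blood and all 3 mesenchymal markers crossed in at least 1 sample, though none was under 35 in all 6. Of these, miR-223, miR-142-3p, miR-145 and miR-199a-3p were each under 35 in 5 of 6 samples, with median Ct of 31.4, 31.7, 31.0 and 29.9, beside 31.3 for miR-23b in 4 samples. Both striated muscle markers on the card crossed, miR-133a in all 6 samples (Ct 27.9 to 31.7) and miR-1 in 3. The part of these signals in the results was not tested. Endothelial miR-126 was an early signal in all 6 samples, with Ct from 21.2 to 24.8.

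The 5 miRNAs ran from Ct 20.3 to 32.9. miR-24, which is known to restrain cell cycle genes such as E2F2 and MYC, gave the earliest Ct of the 5 on every card. Its Ct in series 1, 2 and 3 was 21.4, 22.6 and 20.3 for control and 21.9, 24.6 and 22.4 for knockdown. On each card it ranked between the 15th and the 30th earliest of 198 to 228 determined miRNA assays, and the late end of that range was knockdown sample 2. As a ratio to U6 it ran from 0.00171 to 0.0101.

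miR-27a, from the chromosome 19 cluster and known as a brake on adipocyte differentiation through PPARG, had a Ct of 26.2, 28.0 and 26.5 in control and 25.5, 28.7 and 29.5 in knockdown. The chromosome 9 form miR-27b had a Ct of 26.7, 27.8 and 28.1 in control and 26.5, 28.4 and 29.3 in knockdown. Both sat near the middle of the determined assays, between the 63rd and the 109th earliest. In each group the sample of series 1 gave the earliest Ct for miR-27b, and the control and knockdown values of both assays overlapped.

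The miR-23 assays, which read miRNAs known to repress glutaminase, were late and intermittent. miR-23b had a Ct of 31.0, 30.6 and 32.9 in the control samples and 31.7 in knockdown sample 3, with no crossing in knockdown samples 1 and 2. miR-23a crossed in knockdown sample 2 alone, at 32.6. No sample had a crossing for both, and knockdown sample 1, the card with the most determined assays (228), had one for neither. A crossing for miR-23b in 3 of 3 control and 1 of 3 knockdown samples gave p = 0.4 in Fisher's exact test (two-sided), the smallest p that 4 determined samples of 6 allow.

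**Figure D1:**
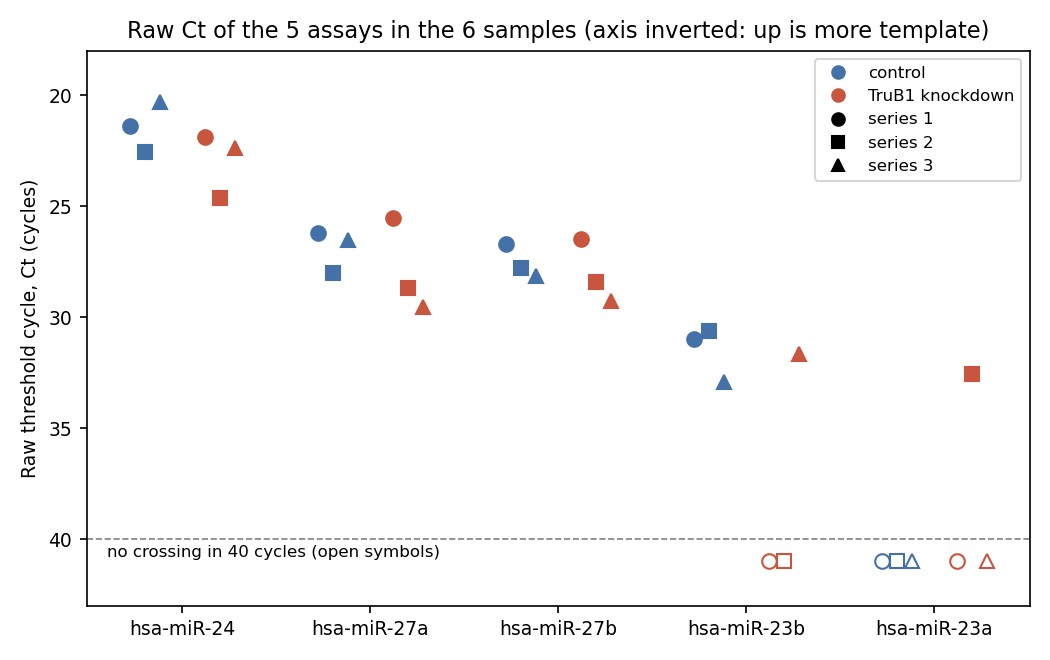
Raw Ct in cycles on an inverted axis for the 5 assays, with control samples in blue, TruB1 knockdown samples in red and a symbol for each series number; open symbols under the dashed line had no crossing in 40 cycles. miR-24 lies between 20.3 and 24.6, miR-27a and miR-27b between 25.5 and 29.5, and miR-23b and miR-23a have 2 and 5 wells without a crossing.

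Such gaps were usual on these cards at the Ct of miR-23. Of 93 assays with a mean determined Ct from 30 to under 33, 32 (34.4%) were determined in all 6 samples, 47 (50.5%) in 4 or fewer and 19 in a single one. In contrast, 82 of 89 assays (92.1%) with a mean from 25 to under 30, where both miR-27 forms lie, were determined in all 6. The pattern of miR-23b, 3 control samples and 1 knockdown sample, was found in 6 assays, miR-23b among them, and 2 had the opposite one. The pattern of miR-23a, knockdown sample 2 alone, was found in 11 assays.

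**Figure D2:**
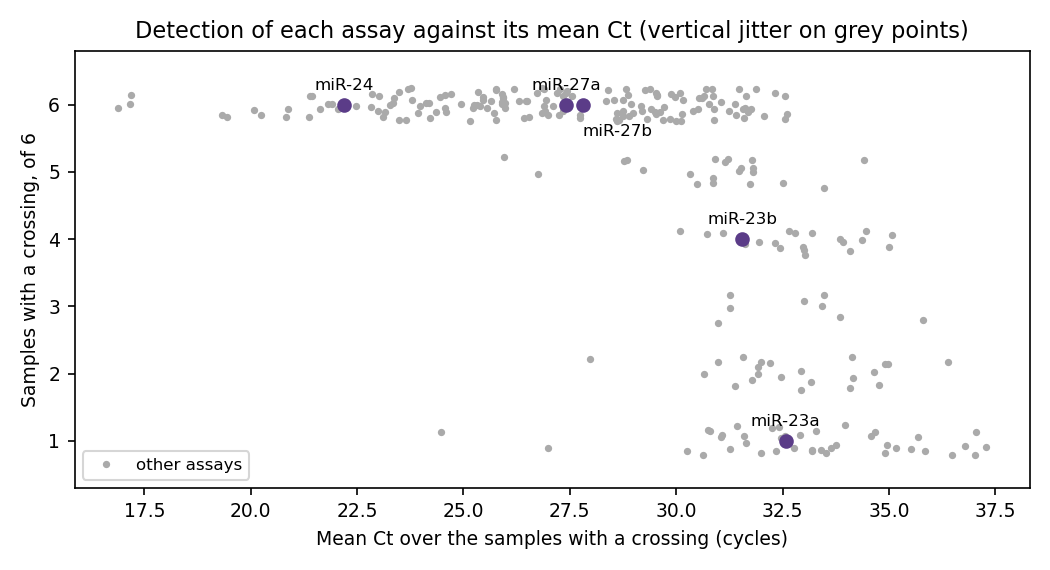
Number of samples with a crossing, of 6, against the mean Ct in cycles over those samples, with 1 point per miRNA assay, the 5 named assays in purple and a vertical jitter on the grey points; 1 assay with a single Ct of 3.73 lies off the axis. miR-23b (mean 31.5, 4 samples) and miR-23a (32.6, 1 sample) lie in the range where many assays have gaps, and miR-24 and both miR-27 forms are determined in all 6 samples.

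Levels of cluster partners were compared within a card, where the difference between a pair of Ct values depends neither on U6 nor on the RNA loaded. Differences in efficiency between assays remain in it, so these are differences between signals and were not tested. miR-24 was above miR-27a by 4.83, 5.44 and 6.24 cycles in the controls of series 1, 2 and 3 and by 3.67, 4.03 and 7.16 in knockdown, a mean of 5.23 ± 1.33 (SD, n = 6) or 37.5-fold. It was above miR-27b by 5.35, 5.20 and 7.84 cycles in control and 4.60, 3.78 and 6.88 in knockdown, a mean of 5.61 ± 1.495 (SD, n = 6) or 48.8-fold. miR-24 thus exceeded each miR-27 form in all 6 samples, by more than the SD between samples, with the widest gaps on both cards of series 3. These gaps set the output of both clusters, read together by the miR-24 assay, against a miR-27 form from a single cluster.

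The remaining partners were lower. Where miR-23b had a Ct, it lay below miR-27b of the same cluster by 4.27, 2.88 and 4.77 cycles in control and 2.38 in knockdown sample 3, a mean of 3.57 ± 1.13 (SD, n = 4) or 11.9-fold. In knockdown samples 1 and 2, miR-27b crossed at 26.5 and 28.4, leaving 13.5 and 11.6 further cycles in which miR-23b did not cross. For miR-23a the only measured gap to miR-27a was 3.90 cycles, and the wells without a crossing had 10.5 to 14.5 cycles left after miR-27a had crossed. A well with no crossing gives no level, and neither miR-23 assay could be ordered against the other in the same sample.

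The signals of the a and b forms of miR-27 were close to each other. Their targets differ by a single base, and whether each assay also reads the other form was not tested. The log2 level of miR-27a over miR-27b was 0.51, -0.24 and 1.60 in control and 0.93, -0.24 and -0.28 in knockdown, so that miR-27a was the higher in 3 of 6 samples. The mean of 0.38 ± 0.78 (SD, n = 6) is smaller than its spread, and the order of the pair is not set by these data. For comparison, the card holds 22 pairs of assays with the same number and arm but a different letter that were determined in all 6 samples. Their absolute mean difference had a median of 1.97 on the log2 scale, and miR-27a and miR-27b were the third closest pair. Their SD between samples was near the median of those pairs (0.77), ranking 12 of 22 from the smallest. The order of signals over the 5 assays was therefore miR-24, then miR-27a and miR-27b without a distinct order, then miR-23b. The place of miR-23b rests on the 4 samples where it crossed, and miR-23a was determined too rarely to be placed.

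Knockdown was compared with control on the log2 of the deposited ratio to U6. In limma, with Benjamini-Hochberg adjustment over the 195 assays that met the detection limits, 0 of the 3 members tested and 0 of 195 assays (0%) passed an adjusted p of 0.05, and 0 had an unadjusted p under 0.05. miR-23a and miR-23b were not tested, because each was determined in fewer than 2 samples of a group. In this fit limma drew the variance of each assay toward a value shared by the 195 assays, with 179 degrees of freedom for each member. The SE and interval of a member thus reflect the spread over the card more than its own SD. The median log2 fold change was -0.10 over the 3 tested members and -0.10 over all tested assays. These are the same number because miR-27a was itself the median assay of the card. The knockdown and control values of miR-24, miR-27a and miR-27b overlapped, as did those of all 161 assays determined throughout (0% without overlap).

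For miR-24 the log2 ratio to U6 in series 1, 2 and 3 was -6.63, -8.60 and -8.15 for control and -6.99, -9.19 and -9.14 for knockdown. The knockdown sample had the lower value within every series number, with the largest difference in series 3. The group means were -7.80 ± 1.03 and -8.44 ± 1.26 (SD, n = 3 each), a difference of -0.65 (SE 1.46, 95% interval -3.53 to 2.23, limma adjusted p = 0.999). Within series 1, 2 and 3 the difference was -0.36, -0.59 and -0.99, or ratios of 0.780, 0.663 and 0.505. When the fit took the series number as a block, the SE was 0.42 and the adjusted p in limma 0.971, so the call did not differ.

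That miR-24 was lower in all 3 series has to be read against the card. Relative to U6, 31 of 161 assays (19.3%) were lower in knockdown in all 3 series, and relative to the 157 common assays 19 of 161 (11.8%). miR-24 was among them on both scales, at -0.19, -0.95 and -0.39 relative to the common assays. Within series 1, 2 and 3, 36.5%, 11.3% and 27.9% of the tested assays lay below it. It was thus in the lower part of the card in each series, but at its edge in none.

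For miR-27a the log2 ratio to U6 was -11.47, -14.04 and -14.39 in control and -10.66, -13.22 and -16.30 in knockdown. The means were -13.30 ± 1.60 and -13.39 ± 2.82 (SD, n = 3 each), a difference of -0.10 (SE 1.48, 95% interval -3.01 to 2.82, limma adjusted p = 0.999). With the series number as a block the SE was 0.63 (95% interval -1.58 to 1.39, limma adjusted p = 0.990). Within series the difference was 0.80, 0.82 and -1.91, so that series 1 and 2 gave ratios of 1.74 and 1.76 and series 3 a ratio of 0.266. The negative mean thus came from series 3, where the U6 mean rested on 2 wells in control and 3 in knockdown. Relative to the common assays the within-series values were 0.97, 0.46 and -1.31, so series 3 was the lowest without U6 as well. Within series 1, 2 and 3, 88.4%, 71.2% and 7.3% of the tested assays lay below miR-27a. Leaving out a single sample breaks a pair and shifts the whole card. Without knockdown sample 3 the difference of miR-27a was 1.36 where the median of all tested assays was 0.76, and without control sample 1 it was 0.82 where that median was 0.58. With the common assays as reference and all samples kept, it was 0.040.

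For miR-27b the log2 ratio to U6 was -11.98, -13.80 and -15.99 in control and -11.60, -12.98 and -16.02 in knockdown. The means were -13.92 ± 2.01 and -13.53 ± 2.26 (SD, n = 3 each), a difference of 0.39 (SE 1.48, 95% interval -2.52 to 3.30, limma adjusted p = 0.999). With the series number as a block the SE was 0.43 (95% interval -0.62 to 1.40, limma adjusted p = 0.990). The within-series differences were 0.38, 0.82 and -0.03. Dropping control sample 3 gave -0.64 and dropping knockdown sample 1 gave -0.58, where the medians of all tested assays were -0.74 and -0.81, so that miR-27b stayed above the card median in both. Relative to the common assays the within-series values were nearly equal, 0.55, 0.46 and 0.57, a mean of 0.53 ± 0.06 (SD, n = 3 series), and 71.8% to 79.9% of tested assays lay below miR-27b in each series. On that scale 19 of 161 assays (11.8%) were higher in knockdown in all 3 series, and in limma with the block and this reference miR-27b had an adjusted p of 0.979. By raw Ct, without a reference, miR-27b was lower in knockdown by 0.51 cycles, where the median of all tested assays was -1.0.

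**Figure D3:**
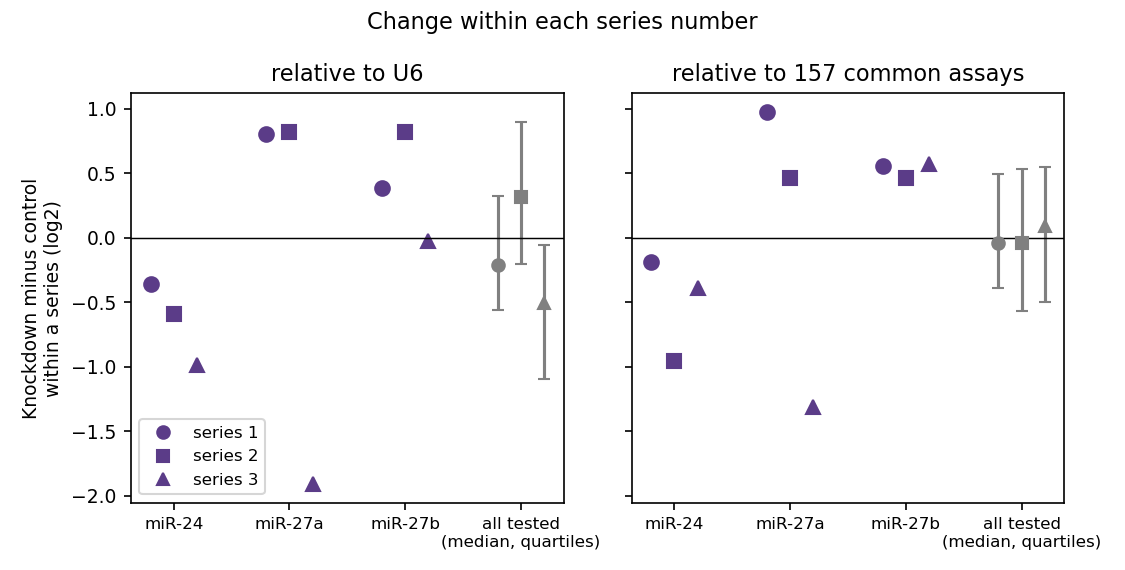
Knockdown minus control on the log2 scale within series 1, 2 and 3 for miR-24, miR-27a and miR-27b (purple), beside the median and quartiles over all tested assays of the same series (grey), relative to U6 on the left and to the mean of 157 commonly detected assays on the right. miR-24 is below 0 in every series on both scales, miR-27a is above 0 in series 1 and 2 and below it in series 3, and miR-27b lies between 0.46 and 0.57 relative to the common assays.

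miR-23b could be compared in series 3 only. Its log2 ratio to U6 there was -20.77 in control and -18.40 in knockdown, a difference of 2.36 or a ratio of 5.15, from 1 well each. Series 1 and 2 give no difference, because the control sample had a Ct and the knockdown sample had none. Setting the wells without a crossing to Ct 40 gave miR-23b a log2 difference of -4.80 (SE 2.11, limma adjusted p = 0.999), opposite in sign to the only measured pair. That value rests on the number chosen for the missing wells.

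The change of one member over another was then tested on the within-card differences, which are free of U6. Of the 10 pairs among the 5 assays, 3 had values in all 6 samples. The log2 level of miR-24 over miR-27b was 6.13 ± 1.48 in control and 5.09 ± 1.60 in knockdown (SD, n = 3 each), a difference of -1.04, lower in knockdown in 3 of 3 series (-0.74, -1.41 and -0.96). The exact two-sided permutation test gave p = 0.5 (0.7 adjusted over 3 pairs), and the smallest p it allows is 0.1. Pairing by series number gave an exact sign-flip p of 0.25, the smallest possible there.

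The same direction in all series was common for each of these miRNAs. miR-24 was lower in knockdown in all 3 series relative to 68 of the other 160 assays determined throughout (42.5%), and miR-27b was higher in all 3 relative to 78 of 160 (48.8%). Leaving out control sample 3 brought the difference of miR-24 over miR-27b to -0.18, leaving out knockdown sample 2 to -0.38 and leaving out knockdown sample 3 to -1.93.

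For miR-24 over miR-27a the levels were 5.50 ± 0.70 in control and 4.95 ± 1.92 in knockdown (SD, n = 3 each), a difference of -0.55 (exact permutation p = 0.7, also adjusted). It was lower in knockdown in series 1 and 2 (-1.16 and -1.41) and higher in series 3 (0.92), and without knockdown sample 1 it was 0.091. For miR-27a over miR-27b the levels were 0.63 ± 0.93 in control and 0.14 ± 0.69 in knockdown (SD, n = 3 each), a difference of -0.49 (exact permutation p = 0.5, 0.7 adjusted). This came from series 3, at -1.88, as series 1 gave 0.42 and series 2 gave -0.00052. Without control sample 3 the difference was 0.00084. Over the 22 letter pairs of the card the absolute difference between groups had a median of 0.495, near that of miR-27a and miR-27b.

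**Figure D4:**
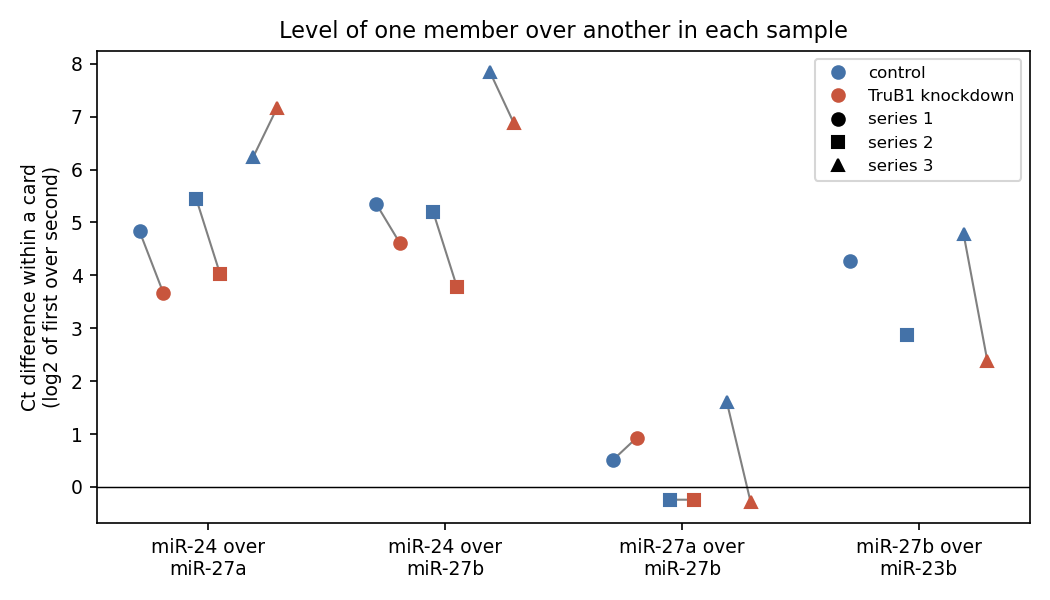
Log2 level of one miRNA over another within each card, from the Ct difference in cycles, with control in blue and TruB1 knockdown in red joined by a grey line within a series number. miR-24 over miR-27b is lower in knockdown in all 3 series, miR-27a over miR-27b is level in series 2 and differs by -1.88 in series 3, and miR-27b over miR-23b has a knockdown value in series 3 only.

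How the members varied together across samples depended on the reference. Relative to U6, which all values of a card share, Pearson's r over the 6 samples was 0.925 for miR-27a with miR-27b, 0.813 for miR-27a with miR-24 and 0.635 for miR-27b with miR-24. Relative to the common assays the same values were 0.544, -0.085 and -0.740. On that scale miR-27b ranked 25 of 160 among the assays by likeness to miR-27a, and miR-27a ranked 44 of 160 by likeness to miR-27b. By likeness to miR-24, miR-27a ranked 87 of 160 and miR-27b 133 of 160. The assays most like miR-27a were miR-18b (r = 0.978) and miR-148a (0.965), those most like miR-27b were miR-579 (0.954) and miR-576-3p (0.915), and those most like miR-24 were miR-32 (0.973) and miR-218 (0.959). These are descriptions over 6 samples that share their cards, among 158 candidates each.

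Neighbouring miRNA genes were listed for both clusters. miR-181c, encoded 38.0 kb from the chromosome 19 cluster on the opposite strand, had within-series log2 differences of -0.69, 2.39 and 0.16 relative to U6. The let-7 genes MIRLET7A1, MIRLET7F1 and MIRLET7D lie 906 to 909 kb from the chromosome 9 cluster, and let-7a and let-7f are also made at other loci. For let-7a the differences were -1.35, -1.07 and -1.91, for let-7f -0.34, -1.06 and 0.52, and for let-7d -2.48 and 0.30 in series 1 and 3. miR-128a, whose first 10 bases hold bases 3 to 8 of miR-27 (CACAGU), differed by -0.31, 1.11 and -1.65. None of these 5 assays passed an adjusted p of 0.05 in limma without or with the block. Without the block none had an unadjusted p under 0.05, and with it 1 did, let-7a (0.0119, limma adjusted p = 0.728), where 5.29% of the tested assays did.

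Endothelial miR-126 was examined beside them because these clusters are known from endothelium. Its within-series differences were -0.24, -0.15 and -0.51 relative to U6 and -0.07, -0.51 and 0.09 relative to the common assays. The part of miR-126 in the values of the miR-23/27/24 assays was not tested.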

How the data were processed

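Per the labels' protocols, 1000 ng of total RNA was reverse transcribed with Megaplex Pool A primers and run on TaqMan array cards for 40 cycles. The raw values deposited by the authors are Ct, with wells that did not cross marked undetermined; threshold and baseline settings are not given in the sources used here. The deposited normalized value is a ratio to U6; it was recovered as 2 to the power of the mean U6 Ct minus the assay Ct, to within 6.8e-06 on the log2 scale. There are no counts, so depth is the number of assays under Ct 35. Each assay is 1 well per card.

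From these, the log2 ratio was computed with undetermined wells missing and no pseudocount. Assays under Ct 35 in at least 3 samples and determined in at least 2 per group were fitted in limma 3.58.1 (R 4.3.3; lmFit, eBayes, two-sided, tested on simulated data), with group as the only term. Same-numbered samples deviated together from their group means (r = 0.416, 0.527 and 0.625 across 161 assays). Different numbers gave -0.536 to 0.249, but deviations cancel out within a group, so positive same-number values partly force the others down. From the same-number values, and not a label, the series number was taken as a pairing and fitted as a replicate block. For an assay determined in all 6 samples the block can change the SE but not the log2 change, which was -0.65 for miR-24 (limma adjusted p = 0.971). Sequences are from the deposited table and RefSeq (GRCh38.p14); all 5 members matched by name, and each RefSeq sequence starts with its assay target. The rule for named assays took the 5 members, listed neighbours, miR-128a and the 2 assays most correlated with each member. Members and lists were chosen with earlier results of these data known. The deposited fold-change table was not used, since each fold follows from the ratios.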

Additional observations from a re-analysis of the deposited data

How the results depend on the processing

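No assay passed an adjusted p of 0.05 under any of the 16 alternatives fitted in limma (smallest adjusted p 0.119 with the replicate block and the common assays as reference, 0.243 with the block alone). At an unadjusted p under 0.05 there were 0 as reported, 10 with the replicate block, 13 with the block and the common assays as reference, 3 with that reference alone, 6 by raw Ct and 2 with quantile normalization. The block changed no call on a member. The median over the members (-0.10) reversed to 0.040 with the common assays as reference, with and without the replicate block, and ran from -1.37 to 1.36 when 1 sample was left out. Those fits break a pair, and the median of all tested assays moved as well. The median of the members reversed to 0.82 without control sample 1, where that of all tested assays was 0.58. Without knockdown sample 3 it reversed to 1.36, where that of all tested assays was 0.76. Without knockdown sample 1 it kept its sign, at -1.37, where that of all tested assays was -0.81. For single assays, miR-27a ran from -1.46 to 1.36 and miR-27b from -0.64 to 1.64 with 1 sample left out. miR-27a reversed to 0.040 with the common assays, with and without the block, and to 0.82 and 1.36 without control sample 1 and knockdown sample 3. miR-27b reversed to -0.51 by raw Ct and to -0.64 and -0.58 without control sample 3 and knockdown sample 1. miR-24 was lower throughout, from -1.55 to -0.51 over 10 settings that kept all samples and from -1.37 to -0.06 over 6 that left one out. Leaving out a sample moved the difference of miR-24 over miR-27a from -1.65 to 0.091, of miR-24 over miR-27b from -1.93 to -0.18 and of miR-27a over miR-27b from -0.92 to 0.00084. Levels over all samples ran from 4.84 to 5.54, 5.16 to 5.97 and 0.14 to 0.51 for these pairs, and from 3.18 to 3.97 for miR-27b over miR-23b, which moved to 6.57 with undetermined wells at Ct 40, by construction. The cause of the reversals was not tested. Detection above about Ct 30 limits what can be said of miR-23.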
